A study of Homo sapiens with 6 samples.

Results

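FN1, CD24 and CAPG encode 3 adhesion and cytoskeletal proteins whose RNA-Seq counts were far higher in N6AMT1-depleted K562 cells than in control cells. They are described here together with 7 surface receptors that bind fibronectin, fibrinogen, hyaluronan or partner receptors, namely ITGA4, ITGA5, ITGA2B, ITGB1, ITGB3, CD44 and CD9. These 10 genes are 10 of the 19330 genes in the counts. FN1, CD24 and CAPG were chosen because their counts were higher in these same depleted libraries, so their difference is given as a description without a p-value. The 7 receptors were chosen for their function, but with the results of the same comparison already known, and their values are given in the same way.

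N6AMT1 is a methyltransferase that modifies the translation termination factor eRF1, and the study asked whether its loss changed nuclear gene expression. K562 is an established human line from chronic myelogenous leukemia that grows in suspension and carries erythroid and some megakaryocytic features. All 6 libraries came from K562 cells transduced with pLentiCRISPRv2, a lentivirus that carries Cas9 and 1 sgRNA. These cells were selected with puromycin and collected at day 10, and the study counts days from transduction. The labels give 10 mg/ml puromycin, which differs from the dose in the methods of the study. The 3 sgCtrl libraries had control sgRNAs against the olfactory receptor genes that the labels call OR11A1 and OR2M49, and the 3 sgN6AMT1 libraries had sgRNAs against N6AMT1. Each library came from its own transduction, the sgRNA used for a given library was not given in the sources used here, and the sources describe no selection of single-cell clones.

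Fibronectin, the product of FN1, is a secreted glycoprotein of the extracellular matrix that cells bind through integrins, which are pairs of an alpha and a beta chain. The pair of ITGA5 and ITGB1 is the classical fibronectin receptor and recognizes the RGD motif, the pair of ITGA4 and ITGB1 binds fibronectin at another site and VCAM1 on other cells, and the pair of ITGA2B and ITGB3 is the platelet fibrinogen receptor. CD44 is the main receptor for hyaluronan, CD9 is a tetraspanin that associates with integrins in the membrane, CD24 is a small heavily glycosylated protein held by a lipid anchor, and CAPG caps the fast-growing ends of actin filaments. K562 cells are known to attach to fibronectin through the ITGA5 and ITGB1 pair.

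The sgCtrl libraries held 742470 to 866894 counts each and the sgN6AMT1 libraries 959319 to 5526904, so depth moved with the condition. Levels are cpm after TMM normalization, written as normalized cpm, and a count of 0 allows up to 3 counts, or 3.46 to 4.03 normalized cpm in sgCtrl and 0.548 to 3.16 in sgN6AMT1. With every library thinned to 742470 counts the log2 fold changes were 2.85 for FN1, 3.35 for CD24 and 3.01 for CAPG. The targeted gene N6AMT1 was counted 6, 5 and 9 times in sgCtrl and 0, 18 and 16 times in sgN6AMT1, or 8.15 ± 2.42 against 2.47 ± 2.18 normalized cpm (mean ± SD, n = 3, as for all such values), without overlap. It was too low for the test. The 15 erythroid markers of K562 all had counts, and their summed level was 13915 to 20855 normalized cpm in sgCtrl and 21226 to 38272 in sgN6AMT1.

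FN1 lies at chr2:215360440-215436073 on the minus strand (GRCh38, GENCODE v44, as for the genes that follow). In sgCtrl it was counted 78, 68 and 66 times, and in sgN6AMT1 564, 3360 and 2808 times. The levels were 105, 78.5 and 77.8 normalized cpm in sgCtrl and 594, 613 and 722 in sgN6AMT1. Every depleted library was therefore far above every control library, and the libraries of 1 condition lay close together. The means were 87.0 ± 15.4 and 643 ± 68.8 normalized cpm, a ratio of 7.39 and a log2 fold change of 2.89 ± 0.17 (SE).

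CD24 (chr6:106969831-106975627, minus strand) was barely detected in the control cells, at 5, 3 and 6 counts, against 69, 316 and 275 counts in the depleted cells. The levels were 6.72, 3.46 and 7.07 normalized cpm in sgCtrl and 72.7, 57.7 and 70.7 in sgN6AMT1. The control counts were so low that the 95% Poisson interval of the sgCtrl libraries reached from 0.714 to 15.7 normalized cpm, which still ended below the lowest bound of 51.5 in sgN6AMT1. The log2 fold change was 3.53 ± 0.32 (SE), with means of 5.75 ± 1.99 and 67.0 ± 8.16 normalized cpm. RefSeq lists 5 pseudogene copies of CD24, and how multiply mapped reads were handled was not given in the sources used here, so the counts of CD24 are uncertain in that respect.

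Counts of CAPG (chr2:85394753-85418432, minus strand) were 2, 6 and 9 in sgCtrl, compared with 42, 237 and 252 in sgN6AMT1. The levels were 2.69, 6.92 and 10.6 normalized cpm in sgCtrl and 44.3, 43.3 and 64.8 in sgN6AMT1, again without overlap. The control libraries spread more widely for CAPG than for the other two, and its log2 fold change of 2.89 ± 0.37 (SE) was the least precise of the 3. It was 3.36 without sgCtrl replicate 3, the control library with the most CAPG, and 2.54 without sgCtrl replicate 1, the one with the least. Among the 8324 genes tested, ordered from the highest log2 fold change down, CD24 stood at place 6, FN1 at place 9 and CAPG at place 10. High places follow from the choice of these genes by the same comparison, so nothing is read from them. CD24 and CAPG also had fewer than 10 counts in every control library.

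**Figure D1:**
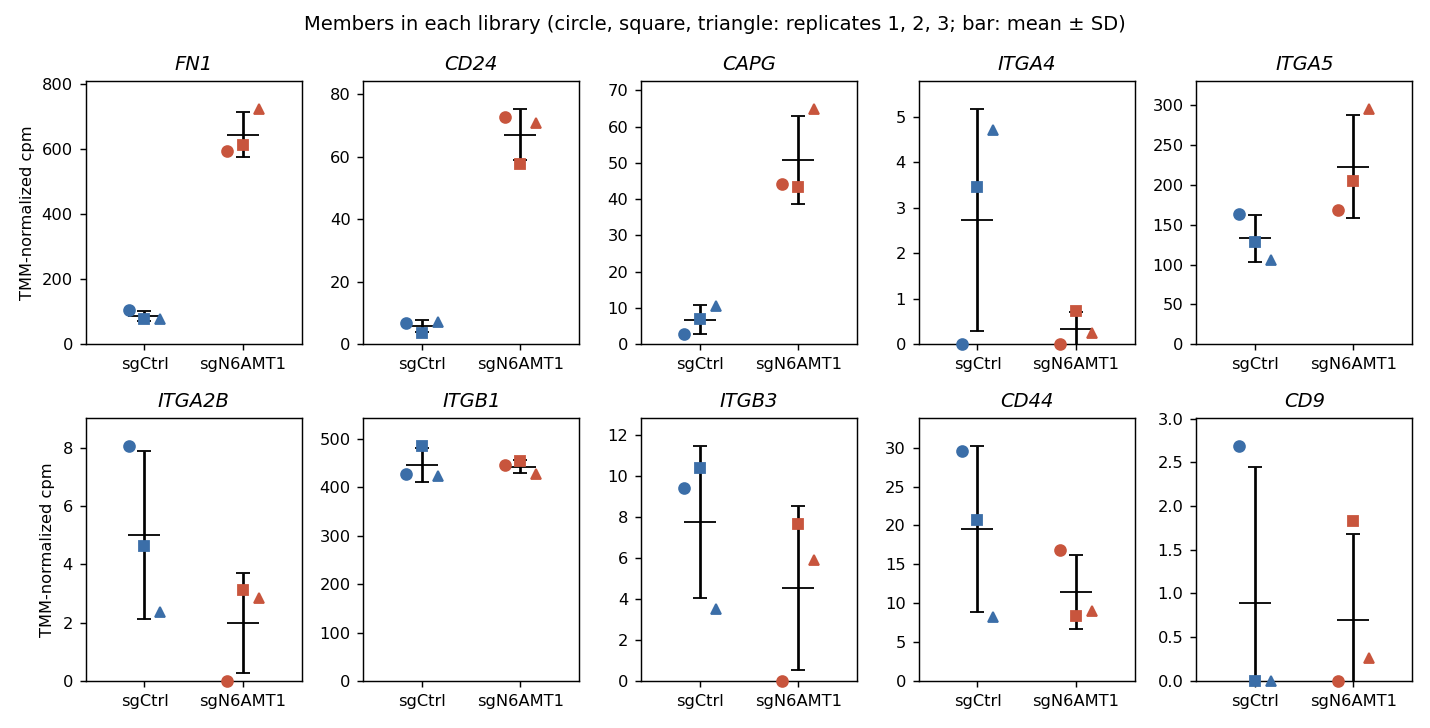
Each panel plots the normalized cpm of 1 of the 10 genes on a linear axis of its own, with the 3 sgCtrl (blue) and 3 sgN6AMT1 (red) libraries as points shaped by replicate number and a bar for the mean ± SD. FN1, CD24 and CAPG are separated by condition, ITGA5 is narrowly separated, ITGB1 is level and the remaining 5 genes overlap.

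The edgeR test called 820 of 8324 genes at an adjusted p under 0.05, or 9.85%, of which 5.09% were higher and 4.76% lower in sgN6AMT1. Of the 10 genes, 6 were high enough to be tested, and 4 of these were called, all of them higher, namely FN1, CD24, CAPG and ITGA5. The same 4 were the tested genes whose conditions did not overlap, which was so for 29.2% of all genes tested. Because the genes were chosen with this comparison known, nothing is read from these counts. ITGB1 and CD44 were tested and not called, and ITGA4, ITGA2B, ITGB3 and CD9 were below the filter on low counts. CD24 and CAPG passed that filter only through the sgN6AMT1 libraries. At their control levels they could be tested only because they were higher after depletion, so the direction of their calls was set by the filter.

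The promoters of the 3 higher genes and of ITGA5, the called receptor, are shown because these 4 genes were the ones called between the conditions. Each sequence runs 5′ to 3′ on the strand of the gene from 220 to 51 bases before the first RefSeq start (RefSeq, GRCh38.p14). FN1 is at chr2:215436119-215436288, CD24 at chr6:106975678-106975847, CAPG at chr2:85414067-85414236 and ITGA5 at chr12:54419317-54419486, all on the minus strand. GENCODE v44 extends CAPG to base 85418432, so the CAPG window lies inside that gene and not before its outermost annotated start. Annotated exons of any gene cover 36 bases of the FN1 window and 8 of the CAPG window. Capitals mark matches to any of the 7 motifs searched on both strands.
FN1: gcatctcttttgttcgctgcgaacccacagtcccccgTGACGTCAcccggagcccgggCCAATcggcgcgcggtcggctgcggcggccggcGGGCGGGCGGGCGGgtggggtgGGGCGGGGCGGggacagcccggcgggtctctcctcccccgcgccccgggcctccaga
CD24: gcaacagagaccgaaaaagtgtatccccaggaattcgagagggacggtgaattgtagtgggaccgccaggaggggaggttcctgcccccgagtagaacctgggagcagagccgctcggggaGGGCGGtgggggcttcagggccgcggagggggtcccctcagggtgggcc
CAPG: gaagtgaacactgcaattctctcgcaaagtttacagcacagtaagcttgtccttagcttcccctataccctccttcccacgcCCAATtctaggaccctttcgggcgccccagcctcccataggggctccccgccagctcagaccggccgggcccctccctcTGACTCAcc
ITGA5: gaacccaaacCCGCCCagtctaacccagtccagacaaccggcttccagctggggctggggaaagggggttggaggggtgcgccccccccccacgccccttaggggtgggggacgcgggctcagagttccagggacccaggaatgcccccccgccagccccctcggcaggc

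Among core promoter elements the search covered TATAAA as the TATA box, GGGCGG as the site of the Sp1 family, and the CCAAT box by its name. For inducible factors it covered TGACGTCA as the cyclic AMP response element and TGANTCA as the AP-1 site. For factors of blood cells it covered AGATAA, to which GATA proteins bind, as well as CCGGAAG, which proteins of the ETS family bind. The 4 windows were rich in G and C, with GC contents of 78.8% in FN1, 66.5% in CD24, 60.0% in CAPG and 71.8% in ITGA5. FN1 held the cyclic AMP response element at positions -183 to -176 from the start, a motif found in 0.956% of 27305 RefSeq promoters in windows of the same length. It also held a CCAAT box at -162 to -158 and 5 partly overlapping GC boxes (GGGCGG) between -129 and -97. CAPG held a CCAAT box at -138 to -134 and an AP-1 site at -59 to -53, and AP-1 letters were found in 4.66% of promoters. CD24 and ITGA5 held 1 GC box each, on the opposite strand in ITGA5. GC boxes were present in 32.8% and CCAAT boxes in 25.7% of all promoters, and no motif was shared by all 4 windows. Within these windows none of the 4 held the TATA box, the GATA site or the ETS site, which were present in 6.52%, 6.58% and 4.68% of promoter windows. The windows end 51 bases before the start, so the search cannot say whether a TATA box lies nearer to it. These matches describe the letters only.

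Of the fibronectin receptor chains, ITGA5 was called higher and ITGB1 was not called, but their ratio within libraries overlapped between the conditions. The alpha chain gene ITGA5 (chr12:54395261-54419266, minus strand) was counted 122, 111 and 90 times in sgCtrl, compared with 160, 1124 and 1147 times in sgN6AMT1. The levels were 164, 128 and 106 normalized cpm in sgCtrl and 169, 205 and 295 in sgN6AMT1. The conditions were separated only narrowly, by the gap between 164 and 169, where the 95% Poisson intervals of 136 to 196 and 143 to 197 overlapped. The means were 133 ± 29.2 and 223 ± 65.0, a log2 fold change of 0.77 ± 0.20 (SE). ITGA5 was called in 14 of 17 fits, and not without sgCtrl replicate 2, sgCtrl replicate 3 or sgN6AMT1 replicate 3, in the last of which its log2 fold change was 0.52.

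The beta chain gene ITGB1 (chr10:32887273-33005792, minus strand), which pairs with most alpha chains of matrix receptors, had almost the same level in both conditions. It had 429, 486 and 424 normalized cpm in sgCtrl and 446, 454 and 428 in sgN6AMT1, so the conditions overlapped almost entirely. The log2 fold change was -0.01 ± 0.14 (SE), and it ranged from -0.05 to 0.11 over 17 fits. ITGB1 has 1 pseudogene copy in RefSeq and shares 401 exon bases with ITGB1-DT, which leaves its counts uncertain to that extent.

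Set against ITGB1 within each library, FN1 separated the conditions and ITGA5 did not. FN1 had 24.5, 16.2 and 18.3 counts per 100 counts of ITGB1 in sgCtrl and 133, 135 and 169 in sgN6AMT1. ITGA5 had 38.2, 26.4 and 25.0 counts per 100 counts of ITGB1 in sgCtrl and 37.8, 45.2 and 69.0 in sgN6AMT1. The lowest depleted library thus fell just below the highest control library for ITGA5. These ratios use counts without the scaling between libraries.

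The other alpha chain of the fibronectin receptors, ITGA4, was near the limit of detection. Its counts were 0, 3 and 4 in sgCtrl, and 0, 4 and 1 after depletion, at most 3 counts in 4 of the 6 libraries. A difference could not be measured at this depth. The gene also shares 2813 exon bases with CERKL on the opposite strand, and whether counting used strand was not given in the sources used here.

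The platelet fibrinogen receptor was low in both conditions. ITGA2B counts were 6, 4 and 2 in sgCtrl, against 0, 17 and 11 in sgN6AMT1, or 5.01 ± 2.87 and 1.98 ± 1.72 normalized cpm, with overlap. ITGB3 counts were 7, 9 and 3 in sgCtrl, against 0, 42 and 23 in sgN6AMT1, or 7.78 ± 3.70 and 4.53 ± 4.02 normalized cpm, also with overlap. Both had 0 counts in sgN6AMT1 replicate 1, the shallowest depleted library. ITGB3 shares 2266 exon bases on the same strand with another annotated gene, ENSG00000259753.

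The hyaluronan receptor gene CD44 was low and variable. Its counts were 22, 18 and 7 in sgCtrl, against 16, 46 and 35 in sgN6AMT1. The levels were 29.6, 20.8 and 8.25 normalized cpm in sgCtrl and 16.9, 8.40 and 9.0 in sgN6AMT1, so sgCtrl replicate 3 lay below every depleted library. The log2 fold change was -0.92 ± 0.42 (SE), and CD44 was called in 0 of 16 fits, over which it ranged from -1.30 to -0.52. The tetraspanin gene CD9 was counted 2, 0 and 0 times in sgCtrl, against 0, 10 and 1 times in sgN6AMT1, and no difference could be measured.

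For an order among the 10 genes, levels were divided by length and given as normalized cpm per kb of merged exons. In sgCtrl the order was ITGB1 at 30.6 ± 2.35, ITGA5 at 18 ± 3.95, FN1 at 5.05 ± 0.90 and CAPG at 2.79 ± 1.64 per kb, followed by CD44 at 1.95 ± 1.07 and CD24 at 1.86 ± 0.64. The first 3 were separated from their neighbours in every control library, FN1 and CAPG only narrowly, whereas from CAPG down each gene overlapped the next. In sgN6AMT1 FN1 came first at 37.4 ± 4.00 per kb, and ITGB1 at 30.4 ± 0.93 and ITGA5 at 30.2 ± 8.80 overlapped. CD24 at 21.7 ± 2.64 and CAPG at 21.0 ± 5.02 per kb also overlapped, and the remaining 5 genes stayed between 0.0309 and 1.14 per kb. By merged exons, the fibronectin transcript thus went from below both chains of its receptor to above ITGB1. In sgN6AMT1 FN1 was at 34.5 to 41.9 per kb and ITGB1 at 29.4 to 31.2. The range of ITGA5, 22.8 to 39.9 per kb, overlapped that of FN1. This order depends on the length used. With the longest transcript FN1 came at place 2 in sgN6AMT1, at 70.1 per kb against 78.8 for ITGB1. With coding length alone FN1 came at place 3 and CD24 at place 2 in sgN6AMT1, behind ITGB1, and FN1 was at 86.6 against 179 for ITGB1. In sgCtrl, coding length put CD24 at place 3 and FN1 at place 4.

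**Figure D2:**
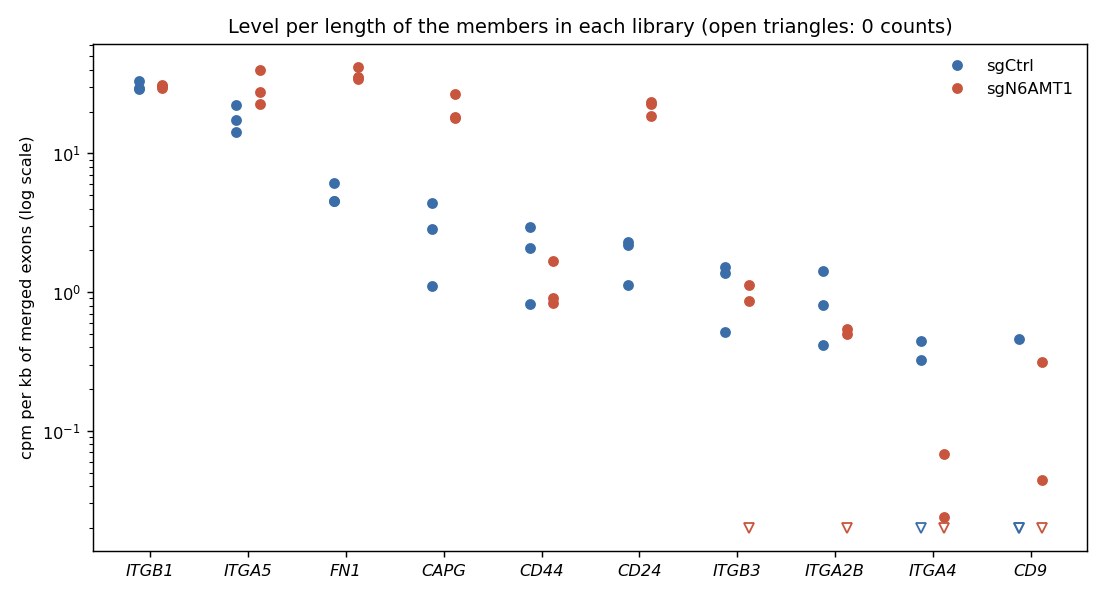
Normalized cpm per kb of merged exons for the 10 genes on a log axis, with each sgCtrl (blue) and sgN6AMT1 (red) library as a point and libraries with 0 counts as open triangles at the foot. ITGB1 has means of 30.6 per kb in sgCtrl and 30.4 in sgN6AMT1. The mean moves from 5.05 to 37.4 for FN1, from 1.86 to 21.7 for CD24 and from 2.79 to 21.0 for CAPG.

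FN1, CD24 and CAPG followed one another closely over the 6 libraries, and the receptors did so to differing degrees. Pearson's r of log2 (normalized cpm + 1) was 0.986 between FN1 and CD24, 0.912 between FN1 and CAPG and 0.923 between CD24 and CAPG. With FN1, r was 0.833 for ITGA5, -0.133 for ITGB1 and -0.424 for CD44. All of these rest on the same 6 libraries, and most of the variation of the 3 genes lies between the conditions, so they are given as descriptions only.

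The 3 genes outside the group that followed each of them most closely over the 6 libraries were picked by the same correlation and are likewise described without a test. For FN1 they were DNAAF3, a dynein assembly factor (r = 0.997), ALDH1A2, an enzyme of retinoic acid synthesis (r = 0.996), and HECW2, a ubiquitin ligase (r = 0.994). ALDH1A2 was at 468 normalized cpm in sgCtrl and 1127 in sgN6AMT1, and HECW2 at 18.8 and 63.4. For CD24 they were BRI3BP (r = 0.997), CPEB4, which binds the poly(A) control elements of mRNAs (r = 0.996), and STOML2, a protein of the inner mitochondrial membrane (r = 0.994). BRI3BP had 8, 8 and 9 counts in sgCtrl and was not called. Its level was 10.2 normalized cpm in sgCtrl and 17.4 in sgN6AMT1 (log2 fold change 0.76 ± 0.34 SE). For CAPG they were STARD9, a kinesin (r = 0.999), LCP1, the actin-bundling protein L-plastin of blood cells (r = 0.998), and HPS3, a protein of lysosome-related organelles (r = 0.997). LCP1 was at 116 normalized cpm in sgCtrl and 203 in sgN6AMT1, and STARD9 at 13.2 and 56.2.

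Genes of the same pathways were examined in 9 lists, beside a background of 9.85% of genes called and a median log2 fold change of 0.01 over all genes tested. Called genes numbered 0 to 5 in a list, and 7 of the 9 lists had at least 1. DESeq2 did not call LAMB1, SHARPIN, ICAM2, SPN or ID2 of the genes described here. Adjusted p-values in this and the following paragraphs are from edgeR over all 8324 genes.

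Among 36 other matrix ligands and matrix components, 8 were tested, of which 2 rose and 0 fell, with a median log2 fold change of 0.26. LAMB1, a laminin chain of basement membranes, rose from 20.2 to 41.1 normalized cpm (log2 fold change 0.98 ± 0.27 SE, adjusted p = 0.0271). SRGN, the proteoglycan core protein of blood cell granules, rose from 90.4 to 181 (1.00 ± 0.23 SE, adjusted p = 0.0118). Neither was called without sgCtrl replicate 1 or without sgCtrl replicate 2, and LAMB1 was also lost without sgN6AMT1 replicate 3. VTN, which encodes the adhesive plasma protein vitronectin, was named after its values were seen. It was at 0 in all 3 sgCtrl libraries and at 3, 30 and 35 counts in sgN6AMT1. Its sgN6AMT1 mean was 1.6-fold the mean control floor of 3.68 normalized cpm, which stands for 3 counts per control library. In sgN6AMT1 replicate 1 it was at 3.16, below that floor. FBN1, also at 0 in sgCtrl and named for comparison, had a mean of 0.713-fold that floor.

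Among 21 other integrin subunits, 3 were tested, of which 0 rose and 0 fell in edgeR, 1 had an unadjusted p under 0.05, and the median log2 fold change was 0.40. ITGAV, the alpha chain of the vitronectin receptors, had the highest mean normalized count of the list, not divided by length, at 67.6 ± 17.5 normalized cpm in sgCtrl and 88.7 ± 4.08 in sgN6AMT1 (log2 fold change 0.40 ± 0.20 SE, adjusted p = 0.217). DESeq2 called 1 gene of this list, ITGAM, the alpha chain of the myeloid complement receptor, which was below the edgeR filter (adjusted p = 0.00376). ITGAM was likewise at 0 in all 3 sgCtrl libraries, and at 5, 55 and 50 counts in sgN6AMT1, with a mean 2.55-fold the same mean floor.

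Among 36 adaptors and kinases that link integrins to the cytoskeleton, 25 were tested, of which 1 rose and 0 fell, with a median log2 fold change of -0.0003. SHARPIN, known as an inhibitor of integrin activation and a subunit of a ubiquitin ligase, rose from 27.8 to 48.7 normalized cpm (0.82 ± 0.25 SE, adjusted p = 0.0463). It was called in 7 of 17 fits, and not without sgCtrl replicate 1, 2 or 3 or without sgN6AMT1 replicate 2 or 3.

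Among 22 other actin-capping and actin-severing proteins, 16 were tested, of which 1 rose and 2 fell, with a median log2 fold change of 0.17. GSN, the severing protein gelsolin of the same family as CAPG, rose from 12.3 to 32.9 normalized cpm (1.5 ± 0.39 SE, adjusted p = 0.0226). The genes that fell were ADD2, an adducin of the membrane skeleton, from 92.7 to 38.6 (-1.22 ± 0.23 SE, adjusted p = 0.0033), and TMOD1, which caps the slow-growing filament ends in red cells, from 39.1 to 18.7 (-1.21 ± 0.30 SE, adjusted p = 0.0163). ADD2 was called in 17 of 17 fits, whereas GSN and TMOD1 were both lost without sgCtrl replicate 2, sgCtrl replicate 3 or sgN6AMT1 replicate 2, and TMOD1 also without sgCtrl replicate 1.

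Among 23 other tetraspanins and their partners, 10 were tested, of which 1 rose and 0 fell, with a median log2 fold change of 0.45. This was CD53, a tetraspanin of white blood cells, which rose from 21.3 to 59.7 normalized cpm (1.47 ± 0.27 SE, adjusted p = 0.00294) and was called in 17 of 17 fits. Blocking on replicate number gave 2 calls in this list.

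Among the genes of hyaluronan turnover and of the proteins that tie CD44 to actin, 10 of 20 in the counts were tested, of which 1 rose and 1 fell, with a median log2 fold change of -0.11. TIMP1, an inhibitor of matrix metalloproteinases, rose from 270 to 403 (0.58 ± 0.16 SE, adjusted p = 0.0253). HMMR, a hyaluronan-binding protein that also works at the mitotic spindle, fell from 214 to 120 (-0.85 ± 0.17 SE, adjusted p = 0.00497) and was called in 17 of 17 fits. TIMP1 was lost without any 1 of the sgCtrl replicates and without sgN6AMT1 replicate 3, as well as after correction for GC content and length.

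The list of other adhesion receptors had the most calls and moved in both directions. Of 33 in the counts, 13 were tested, of which 3 rose and 2 fell, with a median log2 fold change of -0.30. The ligands of leukocyte integrins ICAM1 (16.1 to 38.4 normalized cpm, 1.32 ± 0.31 SE, adjusted p = 0.013) and ICAM2 (39.4 to 69.1, 0.83 ± 0.24 SE, adjusted p = 0.038) rose, as did BSG, which encodes basigin, a chaperone of lactate transporters (237 to 387, 0.71 ± 0.15 SE, adjusted p = 0.00818). MCAM, an adhesion molecule of vessels and melanoma (47.3 to 25.3, -1.0 ± 0.28 SE, adjusted p = 0.0303), and SPN, the sialophorin of white cells (76.6 to 49.1, -0.71 ± 0.22 SE, adjusted p = 0.049), fell. All 5 calls were lost without sgCtrl replicate 2, which left 0 in the list, and 2 were left without sgCtrl replicate 1. ICAM2 was also lost after correction for GC content and length, where its log2 fold change was 0.59.

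Among 30 megakaryocyte and platelet genes, 5 were tested, 13 had 0 counts in all 6 libraries, and edgeR called 0, with 2 at an unadjusted p under 0.05 and 0 called by DESeq2. NFE2, a transcription factor needed for platelet formation, had the highest mean normalized count of the list, not divided by length, at 198 normalized cpm in sgCtrl and 163 in sgN6AMT1 (log2 fold change -0.26 ± 0.17 SE, adjusted p = 0.353). Among 28 genes of TGF-beta signalling and the mesenchymal state, 12 were tested, of which 2 rose and 0 fell, with a median log2 fold change of -0.07. VIM, the intermediate filament vimentin, rose from 868 to 1611 normalized cpm (0.89 ± 0.16 SE, adjusted p = 0.00238) in 17 of 17 fits. ID2, an inhibitor of helix-loop-helix transcription factors, rose from 4.78 to 15.3 (1.65 ± 0.42 SE, adjusted p = 0.0203), but was lost without sgCtrl replicate 1, sgCtrl replicate 2 or sgN6AMT1 replicate 2. It passed the filter on low counts only through the sgN6AMT1 libraries.

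**Figure D3:**
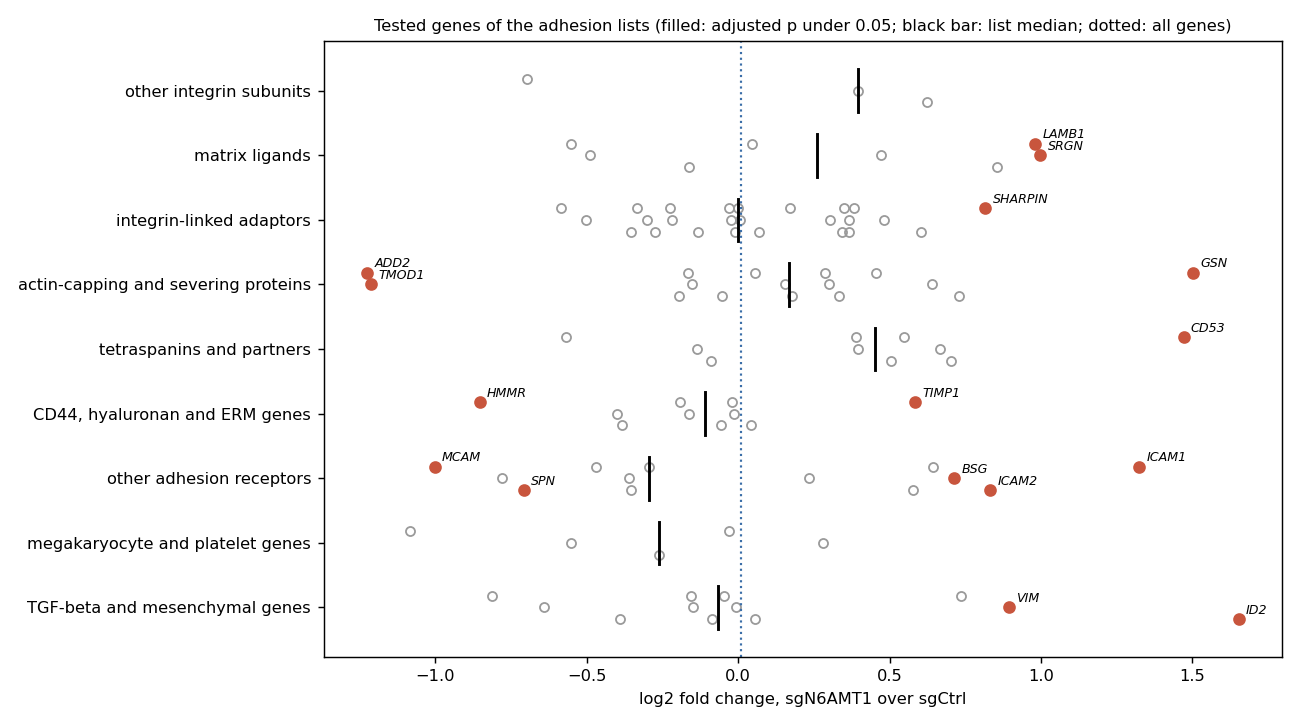
Log2 fold change of sgN6AMT1 over sgCtrl for each tested gene of the 9 lists, with called genes filled and named, the list median as a black bar and the median of all tested genes as a dotted line. The medians lie between -0.30 and 0.45, and the list of other adhesion receptors holds the most called genes, 5 of 13 tested.

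Markers of other cell types were summed in each library, since FN1, CD24 and CAPG are made by many cell types. Fibroblast markers summed to 16.2 to 22.8 normalized cpm in sgCtrl and 17.3 to 23.1 in sgN6AMT1, with LUM, PDGFRA, PDGFRB and FAP at 0 counts in all libraries and 5 of 9 markers with any count. Endothelial markers summed to 2.36 to 8.06 and 1.05 to 2.57, and T and B cell markers to 14.1 to 20.8 and 14.1 to 21.3. For these 3 types the ranges of the conditions overlapped.

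The marker sums of 3 other types did not overlap between the conditions. Monocyte and macrophage markers, of which 7 of 9 had counts, summed to 41.3 to 43.8 normalized cpm in sgCtrl and 86.4 to 118 in sgN6AMT1, with LYZ and FCGR1A called and MARCO and S100A8 at 0. FCGR1A, at 1, 0 and 0 counts in sgCtrl, passed the filter on low counts only through the sgN6AMT1 libraries. ITGAM is itself in this list, and CD14 had at most 1 count in any library. Epithelial markers, of which 7 of 9 had counts, summed to 1001 to 1214 and 1658 to 2111, with KRT5 and CLDN4 at 0. This sum was carried by the keratins KRT8, KRT18 and KRT19, all called higher, whereas EPCAM was at 155 normalized cpm in sgCtrl and 124 in sgN6AMT1 (log2 fold change -0.35 ± 0.18 SE) and was not called. Hepatocyte markers summed to 0 to 1.15 and 5.27 to 6.94, nearly all of it ALB, which had 0, 1 and 0 counts against 5, 32 and 20. The other markers of this list had at most 2 counts in any library, and AHSG, FGB and SERPINA1 were at 0 throughout. Their part in the levels of FN1, CD24, CAPG, VTN and CD53 was not tested. In bulk RNA a change in the share of cells that make a transcript and a change in its amount per cell cannot be told apart.

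FN1, CD24 and CAPG were higher in sgN6AMT1 in every fit that tested them. All fits reuse the same 6 libraries, and the genes were chosen by this comparison, so this is no independent support. FN1 ranged from 2.80 to 3.04 over 17 fits, CD24 from 3.25 to 3.72 over 16 and CAPG from 2.54 to 3.36 over 16, in log2 fold change. CD24 and CAPG could not be tested where at least 10 counts were required in every library.

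**Figure D4:**
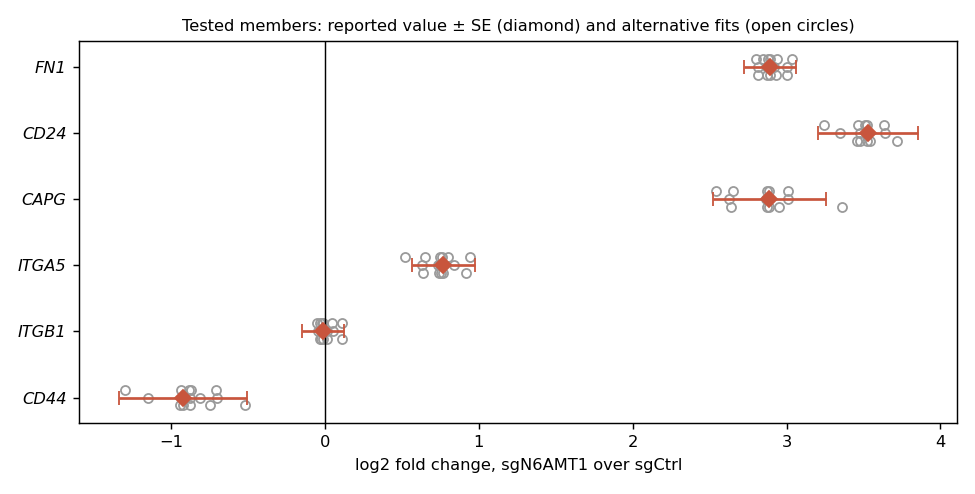
Log2 fold change of the 6 tested genes on the x axis, with the reported value as a diamond, its SE as a bar and the alternative fits as open circles. FN1, CD24 and CAPG stay between 2.54 and 3.72, ITGA5 between 0.52 and 0.94, ITGB1 between -0.05 and 0.11 and CD44 between -1.30 and -0.52.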

How the data were processed

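RNA-Seq libraries of K562 cells were analysed, 3 sgCtrl and 3 sgN6AMT1, with groups and replicate numbers from the labels. The authors trimmed reads with cutadapt (minimum length 15, quality cutoff 2), mapped them with HISAT2 to GRCh38 and used the annotation of release 84. What they deposited is 1 unnormalized read count per gene and library. The counting tool, its use of strand and its treatment of multiply mapped reads were not given in the sources used here. RNA was total RNA depleted of rRNA in the methods, whereas the labels list polyA RNA.

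From the deposited counts, filterByExpr in edgeR 4.0.16 (R 4.3.3) kept 8324 genes. The quasi-likelihood functions glmQLFit and glmQLFTest then compared the conditions with TMM scaling and no covariate, at a common biological variation (BCV) of 0.16. Benjamini-Hochberg adjustment ran over all 8324 genes, called means an adjusted p under 0.05, and the SE of a log2 fold change is its size divided by the square root of F. Intervals are exact 95% Poisson intervals of the counts and, like the floor of 3 counts, cover counting error only. Precision follows depth, which was lower in sgCtrl. Same-condition libraries differed by more than sampling noise, so each was counted as 1 replicate.

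Alternatives were DESeq2 1.42.0, RLE and total-count scaling, normalization without mitochondrially encoded genes, other filters, a replicate block, correction for GC content and length (mgcv 1.9.3, both together with the block), thinning to 742470 counts, and each library left out. DESeq2 adjusted p-values given as NA were kept as NA. Gene positions and lengths come from GENCODE v44, to which 17984 symbols matched directly and 871 through an older symbol, and promoters from RefSeq, which held 9 of the 10 genes.

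The 10 genes and the lists were chosen with earlier results of these data known. Named in the text are the 10 genes, up to 3 called genes in each direction per list, the highest-level gene of a list without calls, and the 3 genes most correlated with each of FN1, CD24 and CAPG. Some genes stand in more than 1 list.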

Additional observations from a re-analysis of the deposited data

How the results depend on the processing

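The 6 tested genes of the 10 gave 93 log2 fold changes under alternatives, set against the spread between replicates (the pooled SD of log2 (normalized cpm + 1) within conditions, not the SE). Of these, 91 moved by less than that spread and 2 by more. Both were of ITGB1, whose replicates lay closest, after correction for GC content and length, where its log2 fold change was 0.11. Leaving out 1 library can hardly move a condition mean by more than this spread, which is also wider for noisier genes. The count therefore cannot show that the values were stable. CAPG went from 2.89 to 3.36 and CD44 from -0.92 to -0.52, each without the control library in which it was highest. Both moves counted as less than the spread. Of 286 values of genes named from the lists, 227 stayed on the same side of the threshold, 55 were no longer called and 4 became called. No called gene changed direction, while ITGB1, near 0, took either sign. Genes called over the whole table were 820 in the reported fit and, with 1 library left out at a time, ranged from 220 without sgCtrl replicate 2 to 951 without sgN6AMT1 replicate 1. They were 630 with DESeq2, 585 after thinning and 1201 without a filter on low counts. Correction for GC content and length gave 914, split 379 higher and 535 lower against 424 and 396 in the reported fit.

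With 1 library left out at a time, the calls ranged from 3 to 4 among the 10 genes, 0 to 1 among other integrin subunits, 0 to 2 among matrix ligands, 0 to 1 among adaptors, 1 to 3 among actin-capping and severing proteins, 1 to 2 among tetraspanins, 1 to 2 in the CD44 and hyaluronan list, 0 to 6 among other adhesion receptors, 0 to 1 among megakaryocyte and platelet genes and 1 to 5 in the TGF-beta and mesenchymal list.

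Requiring at least 10 counts in every library left 2 of the 10 genes called, since CD24 and CAPG were not tested, and gave 2 tetraspanins, 1 megakaryocyte gene and 1 gene of the TGF-beta list. DESeq2 called 1 other integrin subunit, 1 matrix ligand, 0 adaptors, 3 adhesion receptors and 1 gene of the TGF-beta list. Without a filter there were 1 other integrin subunit, 4 matrix ligands, 2 tetraspanins, 1 megakaryocyte gene and 5 genes of the TGF-beta list. With correction for GC content and length there were 1 other integrin subunit, 0 adaptors, 1 gene of the CD44 list and 2 megakaryocyte genes. Thinning gave 1 matrix ligand, 0 adaptors and 2 adhesion receptors, total-count scaling gave 0 adaptors and RLE size factors gave 1 megakaryocyte gene. Apart from the tests lost to the stricter filter, the cause of these changes was not tested.

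The replicate numbers showed no clear pairing. Deviations of same-numbered libraries from their condition means correlated at -0.00052, 0.083 and 0.19. Replicate 3 of sgCtrl correlated best with its own number, but not every library did. So few correlations cannot exclude a pairing. With the replicate block 1195 genes were called, and 2 tetraspanins. The block with correction for GC content and length called 1364 genes, 2 other integrin subunits, 2 adaptors, 4 tetraspanins, 8 adhesion receptors, 2 megakaryocyte genes and 5 genes of the TGF-beta list. Depth limits what can be said of ITGA4, ITGA2B, ITGB3 and CD9, whose control libraries had at most 9 counts.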
